A study of Mus musculus with 8 samples.

Results

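Phospholipases A2 are enzymes that cut the fatty acid from the middle position of a membrane phospholipid, which releases free fatty acids such as arachidonic acid and leaves a lysophospholipid. Secreted forms act outside the cell with calcium, cytosolic forms move to internal membranes when calcium rises, and other relatives work without calcium, on oxidized lipids or in lysosomes. In the spinal cord they are known for membrane upkeep and for supplying the precursors of prostaglandins and leukotrienes in inflammation. The 8 genes described here are Pla2g3, Pla2g5, Pla2g12a, Pla2g4a, Pla2g4e, Pla2g6, Pla2g7 and Pla2g15, 8 of 47643 gene rows in the count table. They were taken by symbol, with Pla2g3 set against its relatives. The choice was made knowing how Pla2g3 differed by genotype, so the differences of these 8 genes are given as values with their error and no test.

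RNA of whole spinal cord was sequenced from 8 C57BL/6 mice, 1 library per mouse, of which 4 are labelled homozygous and 4 heterozygous. The study set out to delete Arf1, a small GTPase that recruits coat proteins to the Golgi, by intraperitoneal tamoxifen at 100 mg/kg; the labels state this treatment for both groups, so the heterozygous mice are not untreated wild-type animals. The mice were 2 to 10 months old, and the age and sex of single animals, the driver of the deletion and the exact alleles are not given in the labels used here. Libraries held 26321522 to 37879426 expected counts in the homozygous group and 29857210 to 37803594 in the heterozygous group. Levels within a gene are in CPM, the counts of a gene scaled to a common library size by TMM (trimmed mean of M values), which corrects for the make-up of each library. Levels between genes are in TPM, the transcripts of a gene scaled to a common total, which allow for gene length.

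Arf1 checks the labels. Its level was 307, 22.5, 22.8 and 39.9 CPM in homozygous replicates 1 to 4, against 334, 296, 322 and 303 CPM in heterozygous replicates 1 to 4. The library labelled homozygous replicate 1 thus lay inside the heterozygous range and went against its label, while the other 3 homozygous libraries were far below it. The log2 fold change of Arf1, homozygous over heterozygous as for every fold change here, was -1.67 (SE 0.95, edgeR adjusted p = 0.42) over 8 libraries. It was -3.46 (SE 0.21, edgeR adjusted p = 0.000796) over the 7 libraries without that one. Since the Arf1 level decided which library was omitted, the second p does not test Arf1 independently. The main results are given with and without that library. Of all genes, 0% of 16511 passed edgeR's quasi-likelihood test at an adjusted p under 0.05 with 8 libraries, while 2769 had an unadjusted p under 0.05, and DESeq2 called 679. With 7 libraries 1.22% of 16560 passed, 0.55% as higher and 0.67% as lower, and 19.5% had an unadjusted p under 0.05.

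The tissue label was checked against marker genes. Summed markers of neurons (6167 to 7092 CPM in homozygous and 6532 to 7966 CPM in heterozygous libraries), oligodendrocytes (7845 to 15357 and 9908 to 11367 CPM) and astrocytes (3448 to 4206 and 3842 to 4449 CPM) were high in every library. A set of 7 Schwann cell markers, which report nerve roots left on the cord, summed to 101 to 134 CPM in homozygous and 154 to 375 CPM in heterozygous libraries, without overlap. The 11 markers of disease-associated microglia summed to 1119 to 1456 CPM in homozygous libraries and to 980 to 1209 CPM in heterozygous libraries; omitting the library labelled homozygous replicate 1 raised the lowest homozygous sum to 1261 CPM. Of these 11 markers 4 passed edgeR's test as higher with 7 libraries, against 0 of the 10 tested with 8. Of the 8 neuron markers 3 passed as lower with 7 libraries, against 0 with 8. With 7 libraries 1 marker each of homeostatic microglia, Schwann cells and meningeal fibroblasts also passed as lower. Of all genes 0.55% passed as higher and 0.67% as lower with 7 libraries. The part of these cell types in the differences described here was not tested, and in whole tissue fewer cells of a type and less RNA per cell cannot be told apart.

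Pla2g3, Pla2g12a and Pla2g7 were the members whose CPM did not overlap between the genotype labels. Pla2g3 and Pla2g12a were higher in the homozygous libraries, Pla2g7 was lower, and the other 5 members overlapped. Over all genes tested in the 8 libraries, 9.28% had groups that did not overlap, 4.61% as higher and 4.67% as lower; with 7 libraries these shares were 18.5%, 9.76% and 8.77%, and the members' split was the same 2 higher, 1 lower and 5 overlapping. Since the members were chosen on this contrast, nothing is read from their share. The median log2 fold change of the 8 members was -0.08 with 8 libraries and -0.12 with 7, with 3 positive and 5 negative values in each.

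**Figure D1:**
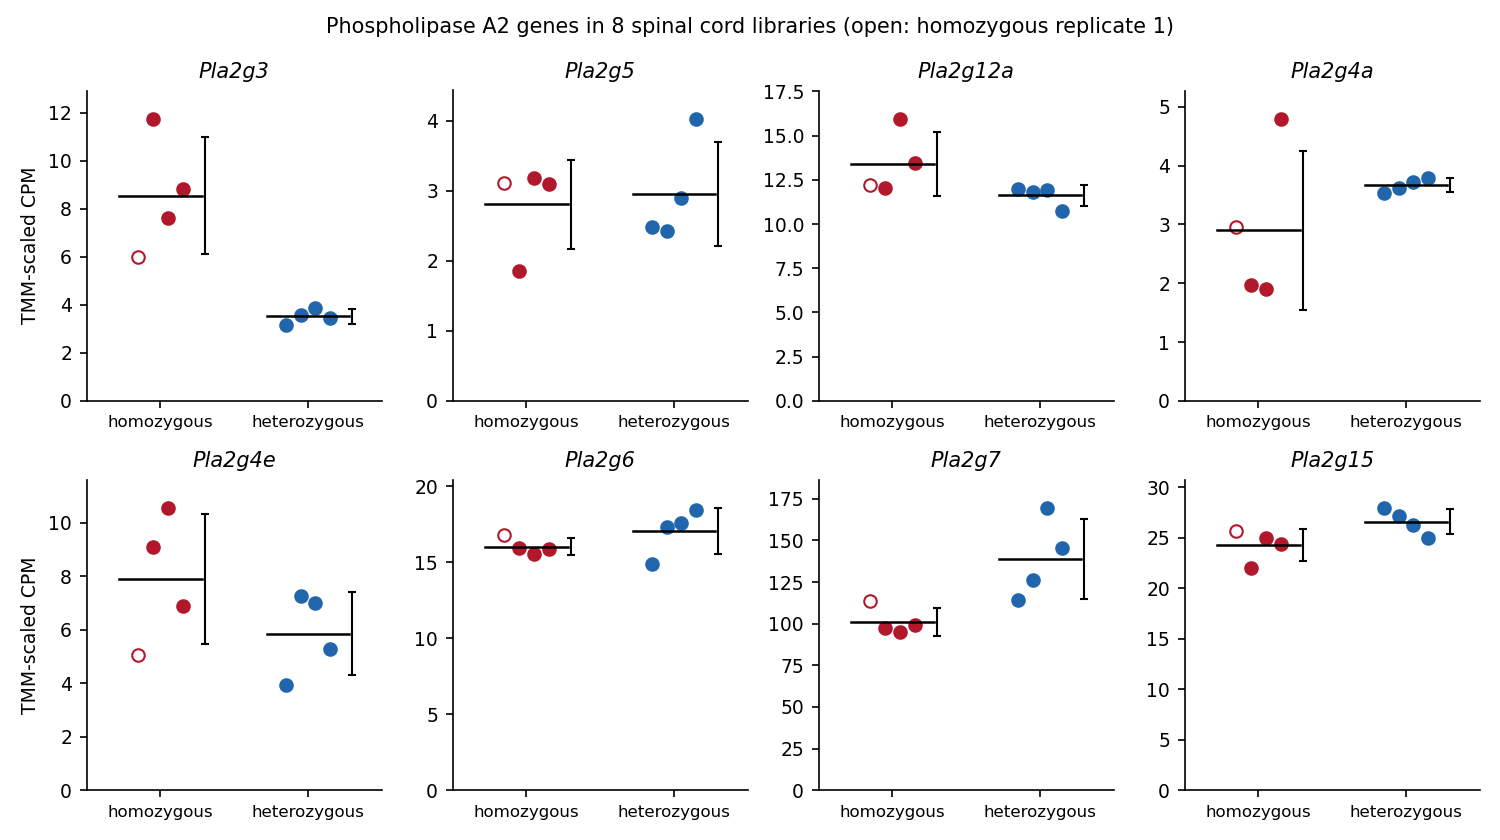
TMM-scaled CPM (y axis of each panel, from 0) of the 8 phospholipase A2 genes in the homozygous (red) and heterozygous (blue) libraries; points are libraries, the open point is the library labelled homozygous replicate 1, horizontal lines are group means and bars are SD (n = 4 each). Pla2g3 lies at 5.98 to 11.8 CPM in homozygous and 3.15 to 3.89 CPM in heterozygous libraries, while most relatives overlap.

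Pla2g3 encodes the group III secreted enzyme, the mammalian relative of the phospholipase of bee venom. The gene spans chromosome 11 from 3488284 to 3499350 on the plus strand (GRCm38, the assembly also called mm10), 55.7 Mb from Arf1 on the same chromosome. Pla2g3 had 5.98, 11.8, 7.62 and 8.84 CPM in homozygous replicates 1 to 4, against 3.15, 3.59, 3.89 and 3.46 CPM in heterozygous replicates 1 to 4. Every homozygous library was above every heterozygous one. The lowest homozygous value belonged to the library labelled homozygous replicate 1, which was still above the highest heterozygous value. The means were 8.55 ± 2.44 CPM in homozygous and 3.52 ± 0.306 CPM in heterozygous libraries (SD, n = 4 each), a 2.43-fold ratio and a fitted log2 fold change of 1.28 (SE 0.19). Without the library labelled homozygous replicate 1 the homozygous mean was 9.41 ± 2.13 CPM (SD, n = 3), the ratio 2.67 and the log2 fold change 1.42 (SE 0.16). The homozygous libraries spread more widely than the heterozygous ones, which lay within 1 CPM of each other.

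The reads behind these levels were few but not at the counting limit. Pla2g3 had 229, 316, 189 and 271 expected counts in homozygous replicates 1 to 4, against 118, 108, 142 and 132 in heterozygous replicates 1 to 4. In the authors' deposited table of their own comparison, which lists 185 genes with a false discovery rate up to 0.0936, Pla2g3 was the single member present, with a log2 fold change of 1.29 where Arf1 has -3.50 in the authors' deposited table. That table was made from the same mice and is no second measurement. Which libraries the authors compared is not given in the sources used here. Their Arf1 value is near the -3.46 fitted here with 7 libraries and far from the -1.67 with 8. Their Pla2g3 value of 1.29, in contrast, is nearer the 1.28 fitted here with 8 libraries than the 1.42 with 7. The set of libraries behind their values therefore stays unknown.

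Pla2g3 shares 4976 bases with Inpp5j, a phosphoinositide phosphatase gene on the opposite strand. Between 99.44% and 99.58% of reads were on the expected strand, but whether the counting used strand is not given in the sources used here, so reads in the shared stretch may not be told apart. Inpp5j had 45.8, 50.6, 46.9 and 37.8 CPM in homozygous replicates 1 to 4, against 47.2, 43.0, 40.2 and 48.7 CPM in heterozygous replicates 1 to 4. Its groups overlapped throughout, and its means were 45.3 ± 5.39 CPM in homozygous and 44.8 ± 3.91 CPM in heterozygous libraries (SD, n = 4 each).

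Pla2g5, the group V secreted enzyme found in macrophages and other cells, did not follow Pla2g3. Its gene lies on chromosome 4 (minus strand) at 138799244 to 138863482. Pla2g5 had 3.11, 1.86, 3.18 and 3.10 CPM in homozygous replicates 1 to 4, against 2.48, 2.43, 2.90 and 4.03 CPM in heterozygous replicates 1 to 4. The homozygous values were close together except for the low replicate 2, and the heterozygous values except for the high replicate 4. Its log2 fold change was -0.07 (SE 0.22) with 8 libraries and -0.13 (SE 0.25) with 7, and its sign turned when heterozygous replicate 4 (0.11) or homozygous replicate 2 (0.08) was left out of the 8 libraries. Heterozygous replicate 4 also had the highest 5′ to 3′ coverage bias, 0.505 against 0.413 to 0.441 in the other 7 libraries, and the part of that in its Pla2g5 value was not tested.

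Pla2g12a encodes the group XIIA secreted enzyme and lies on chromosome 3 (plus strand) at 129878606 to 129895825. It had 12.2, 12.1, 16.0 and 13.5 CPM in homozygous replicates 1 to 4, against 12.0, 11.8, 11.9 and 10.7 CPM in heterozygous replicates 1 to 4. The groups were set apart by a small gap, with homozygous replicates 1 and 2 nearly level with the heterozygous libraries and homozygous replicate 3 the highest. The log2 fold change was 0.21 (SE 0.10) with 8 libraries and 0.25 (SE 0.11) with 7. This separation did not carry over to TPM, where Pla2g12a had 14.4, 12.8, 16.0 and 15.6 TPM in homozygous replicates 1 to 4, against 15.1, 14.9, 14.3 and 14.9 TPM in heterozygous replicates 1 to 4. On the log2(TPM + 1) scale its fold change was -0.01 with 8 and with 7 libraries. On that scale the median log2 fold change of all genes was -0.14 with 8 libraries and -0.17 with 7, so a value near 0 lies above the median gene.

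Among Pla2g3, Pla2g5 and Pla2g12a, Pla2g3 made up a larger part of the summed TPM in the homozygous libraries. The lipoprotein-associated Pla2g7 is not counted with these 3. Its share of Pla2g3, Pla2g5 and Pla2g12a together was 19.4%, 33.3%, 19.4% and 23.8% in homozygous replicates 1 to 4, against 11.1%, 12.6%, 13.7% and 11.9% in heterozygous replicates 1 to 4. A share within a library does not depend on how the libraries were scaled to each other. The lowest homozygous share lay above the highest heterozygous one, and Pla2g12a stayed the most abundant of these 3 in all 8 libraries.

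**Figure D2:**
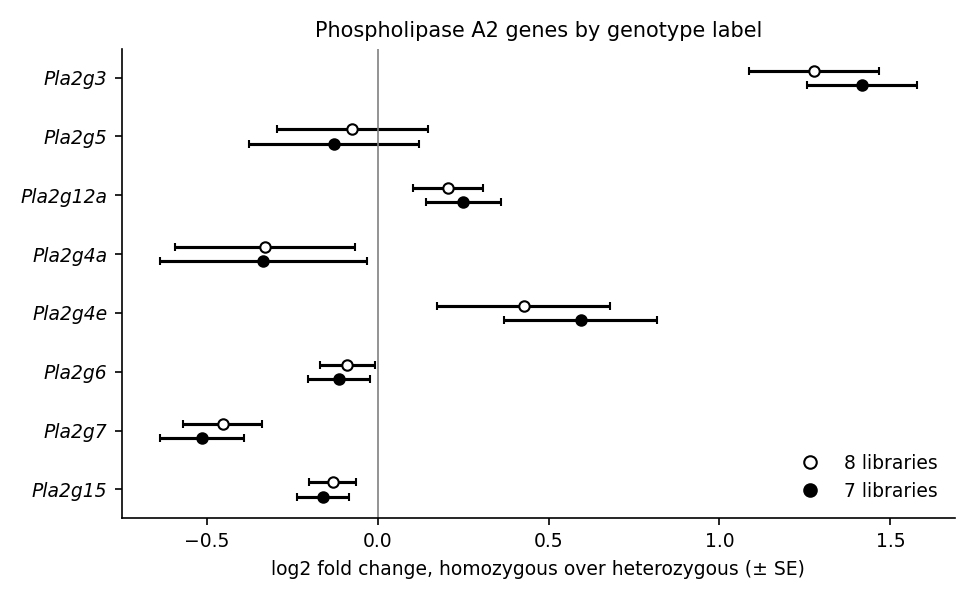
Log2 fold change (x axis, homozygous over heterozygous, bars ± SE) of the 8 genes with 8 libraries (open points) and with the 7 libraries left without the library labelled homozygous replicate 1 (filled points). Pla2g3 stands at 1.28 and 1.42, and the other 7 genes lie between -0.51 and 0.59.

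The cytosolic enzymes Pla2g4a and Pla2g4e had fitted log2 fold changes of opposite sign, each with groups that overlapped. Pla2g4a encodes the calcium-dependent cytosolic phospholipase A2 that prefers arachidonic acid, and lies on chromosome 1 (minus strand) at 149829618 to 149961290. Pla2g4a had 2.95, 1.97, 1.89 and 4.80 CPM in homozygous replicates 1 to 4, against 3.53, 3.62, 3.73 and 3.80 CPM in heterozygous replicates 1 to 4. The heterozygous libraries were nearly level, while 3 homozygous libraries lay below all of them and homozygous replicate 4 lay above all of them. The log2 fold change was -0.33 (SE 0.26) with 8 libraries and -0.33 (SE 0.30) with 7, and -0.93 with the 6 libraries left when homozygous replicate 4 was also omitted.

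The 8 oligodendrocyte markers shared the extreme homozygous library of Pla2g4a. Those markers summed to 10843, 7845, 8990 and 15357 CPM in homozygous replicates 1 to 4, against 9908, 11140, 11367 and 11332 CPM in heterozygous replicates 1 to 4. Homozygous replicate 4 was highest for both and also had the lowest RNA integrity number (8, against 9 in the other 7 libraries). This was not particular to oligodendrocytes. Within its group that library was also highest for the markers of astrocytes, homeostatic microglia and disease-associated microglia. The same was true of endothelial cells, mural cells, monocytes and neutrophils, and red blood cells, but not of neurons, Schwann cells or meningeal fibroblasts. The part of the content of any of these cell types, or of RNA quality, in the Pla2g4a values was not tested.

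Pla2g4e encodes a cytosolic relative that, in mouse brain, also works as a calcium-dependent N-acyltransferase making the precursors of N-acylethanolamines. It lies on chromosome 2 (minus strand) at 120166412 to 120245335. Pla2g4e had 5.07, 9.08, 10.6 and 6.88 CPM in homozygous replicates 1 to 4, against 3.93, 7.25, 6.99 and 5.26 CPM in heterozygous replicates 1 to 4. The groups overlapped, with homozygous replicates 2 and 3 above every heterozygous library and the library labelled homozygous replicate 1 below 3 of the 4 heterozygous ones. Its log2 fold change of 0.43 (SE 0.25) with 8 libraries and 0.59 (SE 0.22) with 7 was the second largest positive value among the members.

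Pla2g6 encodes the calcium-independent enzyme whose loss causes infantile neuroaxonal dystrophy in people. It lies on chromosome 15 (minus strand) at 79286228 to 79328390. Pla2g6 had 16.8, 15.9, 15.6 and 15.9 CPM in homozygous replicates 1 to 4, against 14.9, 17.3, 17.6 and 18.4 CPM in heterozygous replicates 1 to 4. The homozygous values fell in a narrow band inside the heterozygous range, and the log2 fold change was -0.09 (SE 0.08) with 8 libraries and -0.11 (SE 0.09) with 7.

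Pla2g7 encodes the lipoprotein-associated enzyme, also called platelet-activating factor acetylhydrolase, which cleaves platelet-activating factor and oxidized phospholipids. The gene lies on chromosome 17 (plus strand) at 43568098 to 43612201. Pla2g7 had 114, 97.1, 95.1 and 99.4 CPM in homozygous replicates 1 to 4, against 114, 126, 170 and 145 CPM in heterozygous replicates 1 to 4. The groups did not overlap but touched: the library labelled homozygous replicate 1 had 113.6 CPM and heterozygous replicate 1 had 114.2 CPM. The other 3 homozygous libraries were level with each other, while the heterozygous libraries spread widely. Means were 101 ± 8.39 CPM in homozygous and 139 ± 24.2 CPM in heterozygous libraries (SD, n = 4 each), a ratio of 0.730 and a log2 fold change of -0.45 (SE 0.12). Without the library labelled homozygous replicate 1 the homozygous mean was 97.2 ± 2.14 CPM (SD, n = 3), the ratio 0.701 and the log2 fold change -0.51 (SE 0.12).

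Like Pla2g7, the Schwann cell markers were lower in every homozygous library. They summed to 101, 101, 134 and 101 CPM in homozygous replicates 1 to 4, against 154, 237, 375 and 254 CPM in heterozygous replicates 1 to 4. Within the heterozygous group replicate 3 was highest and replicate 1 lowest in both, but within the homozygous group replicate 3 was highest for the markers and lowest for Pla2g7. The markers of mural cells (165 and 249 CPM) and of endothelial cells (205 and 284 CPM) were likewise lowest in heterozygous replicate 1 and highest in heterozygous replicate 3, and both sums overlapped between the groups. The same held for homeostatic microglia (319 and 382 CPM) and disease-associated microglia (980 and 1209 CPM). It also held for oligodendrocytes (9908 and 11367 CPM) and red blood cells (186 and 467 CPM). Neurons, astrocytes, meningeal fibroblasts, and monocytes and neutrophils did not have that order. The 7 Schwann cell markers are Prx, Pmp22, Pmp2, Ncmap, Dhh, Cldn19 and Drp2, and 1 of them passed edgeR's test as lower with 7 libraries and 0 with 8. The part of nerve root, vessel, microglia or other cell content in the Pla2g7 difference was not tested.

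Pla2g15 encodes the lysosomal phospholipase A2, and lies on chromosome 8 (plus strand) at 106150399 to 106164715. It had 25.6, 22.0, 25.0 and 24.4 CPM in homozygous replicates 1 to 4, against 27.9, 27.1, 26.3 and 25.0 CPM in heterozygous replicates 1 to 4. The groups overlapped at their edge, where the library labelled homozygous replicate 1 and, narrowly, homozygous replicate 3 exceeded heterozygous replicate 4, so that the overlap was also there with 7 libraries. The log2 fold change was -0.13 (SE 0.07) with 8 libraries and -0.16 (SE 0.08) with 7.

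By level per length, Pla2g7 dominated the 8 genes in the cord. Over the 8 libraries it averaged 107 ± 29.9 TPM (SD, n = 8), ahead of Pla2g15 at 16.4 ± 2.20, Pla2g12a at 14.7 ± 0.965 and Pla2g6 at 10.8 ± 1.63 TPM. Pla2g3 followed at 3.93 ± 1.78 TPM, then Pla2g4e at 2.80 ± 0.647, Pla2g5 at 2.70 ± 0.826 and Pla2g4a at 2.24 ± 0.933 TPM. Pla2g7 exceeded every other member in all 8 libraries, and Pla2g6 exceeded Pla2g3 in all 8 with ranges that did not overlap. Pla2g12a was above Pla2g6 in each of the 8 libraries, although their ranges overlapped. Pla2g15 was above Pla2g12a in 6 of 8 libraries, 2 of 4 homozygous and 4 of 4 heterozygous. Pla2g3, Pla2g4e, Pla2g5 and Pla2g4a had overlapping ranges and are not separated by their spread. FPKM, another length-scaled unit, gave the same order. It differs from TPM by a common factor within each library, so this is no separate check.

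The place of Pla2g3 in that order differed by label. Pla2g3 had 4.15, 7.15, 4.42 and 5.73 TPM in homozygous replicates 1 to 4, against 2.18, 2.53, 2.68 and 2.60 TPM in heterozygous replicates 1 to 4. It ranked 5 of 8 in each of the 4 homozygous libraries, above the other 3 genes of low level, and 7, 8, 6 and 7 in heterozygous replicates 1 to 4. The TPM of Pla2g4a used for these ranks is less certain, because the effective length that RSEM gave it was 2651 to 2672 bases in homozygous and 1598 to 2659 bases in heterozygous libraries, a 1.67-fold range that lifted it to 3.81 TPM in heterozygous replicate 2. For Pla2g3 that length ranged by 1.03-fold.

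**Figure D3:**
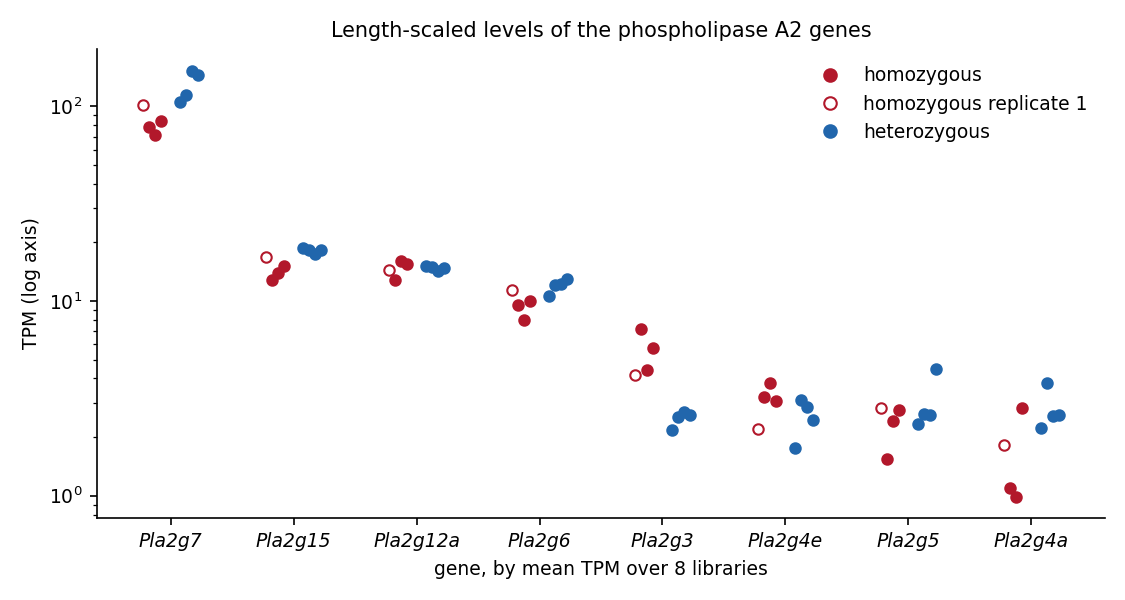
TPM on a log axis (y) of the 8 genes ordered by their mean over 8 libraries (x), with homozygous libraries in red, the library labelled homozygous replicate 1 as an open point and heterozygous libraries in blue. Pla2g7 lies at 71.6 to 153 TPM, above all others, and Pla2g3 at 4.15 to 7.15 TPM in homozygous and 2.18 to 2.68 TPM in heterozygous libraries.

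Pla2g7 carried most of the summed level of the 8 genes. They summed to 155, 127, 121 and 139 TPM in homozygous replicates 1 to 4, against 158, 172, 207 and 203 TPM in heterozygous replicates 1 to 4. Pla2g7 made up 61.7 ± 2.69% of this sum in homozygous and 69.6 ± 3.57% in heterozygous libraries (SD, n = 4 each), or 60.5 ± 1.39% (SD, n = 3) in homozygous libraries without the library labelled homozygous replicate 1. Without Pla2g7 the sum was 51.6 ± 3.32 TPM in homozygous and 55.7 ± 2.36 TPM in heterozygous libraries (SD, n = 4 each), with overlapping ranges of 48.2 to 55.2 and 53.0 to 58.1 TPM. Pla2g3 made up 4.02 ± 1.24% of the 8-gene sum in homozygous and 1.36 ± 0.0890% in heterozygous libraries (SD, n = 4 each). Without the library labelled homozygous replicate 1 the homozygous share of Pla2g3 was 4.47 ± 1.05% (SD, n = 3). These sums cover the 8 genes alone: of the other phospholipases A2, Pafah1b2 averaged 92.1, Pnpla8 65.9 and Pla2g16 31.8 TPM over the 8 libraries, each above every one of the 8 except Pla2g7. Sums set side by side between the groups also carry the shift of the median gene on the TPM scale given above.

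Genes whose pattern was most like that of Pla2g3 were sought over the 8 libraries among 13362 genes, by the mean absolute difference per library of log2-CPM centred on each gene's mean; the median gene differed by 0.619. The closest was Ddc, which encodes the decarboxylase that makes dopamine and serotonin, at 0.140. Apod, an apolipoprotein, followed at 0.158, Etnppl, a phospholyase of ethanolamine phosphate, at 0.166, Phyhd1 at 0.186 and Dnah14, a dynein heavy chain, at 0.201. Genes were picked for this likeness, so their levels are a description.

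Ddc had 10.9, 23.2, 12.4 and 16.0 CPM in homozygous replicates 1 to 4, against 6.63, 6.52, 8.14 and 8.56 CPM in heterozygous replicates 1 to 4. As for Pla2g3, homozygous replicate 2 was highest, replicate 4 next and the library labelled homozygous replicate 1 lowest of its group, above all heterozygous libraries. Etnppl averaged 88.3 ± 22.5 CPM in homozygous and 38.9 ± 7.22 CPM in heterozygous libraries, and Phyhd1 20.6 ± 9.0 and 8.16 ± 1.38 CPM (SD, n = 4 each). Leaving out the library labelled homozygous replicate 1 gave homozygous means of 17.2 ± 5.48 CPM for Ddc, 94.3 ± 23.3 CPM for Etnppl and 24.1 ± 7.03 CPM for Phyhd1 (SD, n = 3). Apod was the most abundant of them at 529 ± 236 CPM in homozygous and 240 ± 50.1 CPM in heterozygous libraries (SD, n = 4 each), and its groups overlapped because the library labelled homozygous replicate 1, at 281 CPM, was below heterozygous replicate 3, at 309 CPM; without it Apod averaged 611 ± 206 CPM (SD, n = 3) and the groups did not overlap. No other member of the family was among the closest 5.

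The genes around Pla2g3 were examined to see whether its whole neighbourhood moved, after the values had been seen. Within 200 kb lay 26 other genes, of which 11 were tested. Of these 0 passed edgeR's test with 8 libraries and 1 with 7, beside 0% and 1.22% of all genes. That gene is Smtn, which encodes smoothelin, a cytoskeletal protein of contractile smooth muscle; it lies 18172 bases beyond Pla2g3 on the minus strand, from 3517523 to 3540612. Smtn had 4.49, 3.09, 4.31 and 3.78 CPM in homozygous replicates 1 to 4, against 6.87, 8.68, 11.5 and 9.16 CPM in heterozygous replicates 1 to 4. It went the opposite way to Pla2g3, with every homozygous library below every heterozygous one. Selm, 15333 bases from Pla2g3, had a log2 fold change of 0.32 (SE 0.08, edgeR adjusted p = 0.0844) with 7 libraries. Patz1 had 0.23 (SE 0.08, edgeR adjusted p = 0.173). With 7 libraries both lay above every heterozygous library, as 9.76% of all genes did, and with 8 both overlapped. The other tested neighbours overlapped with 7 libraries.

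The log2 fold change of Smtn was -1.20 (SE 0.17, edgeR adjusted p = 0.0734) with 8 libraries and -1.28 (SE 0.19, edgeR adjusted p = 0.0223) with 7. Over the alternatives with 7 libraries its adjusted p lay between 2.77e-07 and 0.0856, and the call was lost in 3 of 7 fits that left out a library. The 6 mural cell markers, from cells of vessel walls that also use smoothelin, summed to 126, 136, 118 and 177 CPM in homozygous replicates 1 to 4, against 165, 221, 249 and 187 CPM in heterozygous replicates 1 to 4. Their part in the Smtn difference was not tested.

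**Figure D4:**
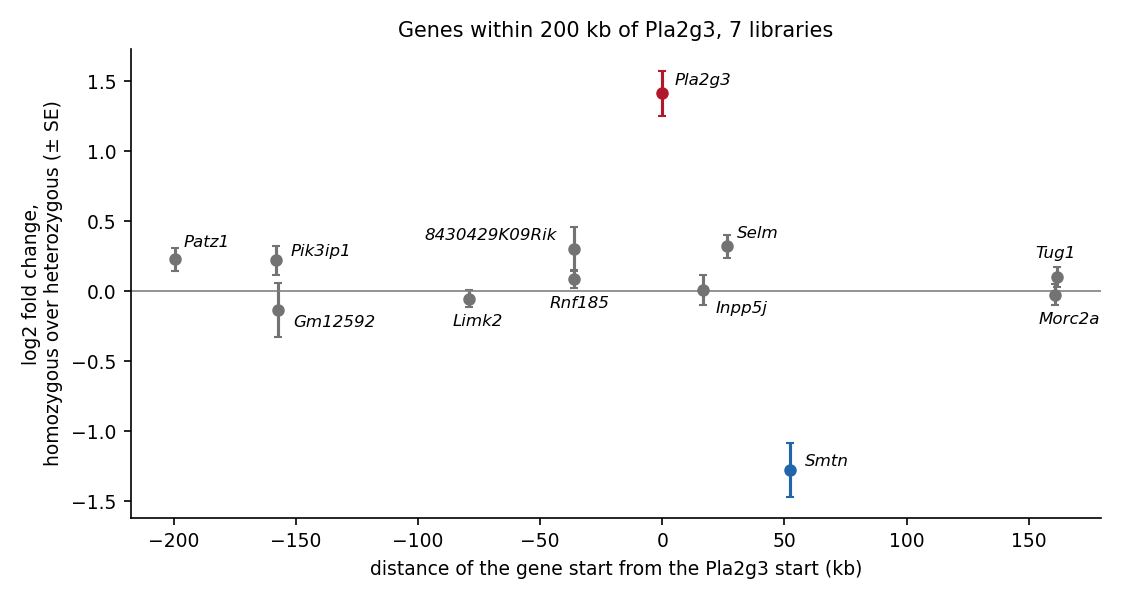
Log2 fold change (y axis, homozygous over heterozygous, 7 libraries, bars ± SE) of the tested genes within 200 kb of Pla2g3, placed by the distance of their starts from the Pla2g3 start in kb (x axis). Pla2g3 (red) is at 1.42 and Smtn (blue) at -1.28, while the other genes lie between -0.14 and 0.32.

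The remaining phospholipase A2 genes and those that act before and after the enzymes were followed in 6 lists. These held 84 gene symbols, of which 83 had a row and 66 were tested. With 8 libraries 0 of 66 passed edgeR's test, 11 had an unadjusted p under 0.05 (16.8% of all genes did), DESeq2 called 2, Acsl6 and Ptges, and limma-voom 0. With 7 libraries 1 of 66 passed, as higher, against 1.22% of all genes. The median log2 fold change over the lists was -0.07 with 8 and with 7 libraries, beside 0.00 for all genes tested in each.

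Most other phospholipase A2 genes were barely detected in the cord. Of 17 with a row, 7 were tested and none of these passed in either fit. Pla2g2a and Pla2g2e, both secreted forms, were at 0 counts in every library, and Pla2g1b, the pancreatic form, and Pla2g12b had 1 count each over all 8 libraries. Pla2g10, a secreted form, had 11 counts in all, and the cytosolic Pla2g4c, Pla2g4d and Pla2g4f had 26, 18 and 7. The most abundant of the 7 by TPM were Pafah1b2, a catalytic subunit of the intracellular platelet-activating factor acetylhydrolase, at 228 ± 5.13 CPM in homozygous and 234 ± 5.04 CPM in heterozygous libraries, Pnpla8, a mitochondrial and peroxisomal enzyme without need for calcium, at 117 ± 3.16 and 121 ± 7.26 CPM, and Pla2g16, an adipose phospholipase, at 43.2 ± 7.45 and 49.9 ± 2.94 CPM (SD, n = 4 each). Their groups overlapped with 8 libraries. With 3 homozygous libraries, leaving out the one labelled replicate 1, the means were 226 ± 4.98 CPM for Pafah1b2, 116 ± 3.77 CPM for Pnpla8 and 40.4 ± 6.04 CPM for Pla2g16 (SD, n = 3), and Pla2g16 then lay below every heterozygous library.

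Receptors and regulators of the enzymes did not pass either, with 5 of 5 tested. Pafah1b1, the LIS1 protein that is also the regulatory subunit of the acetylhydrolase, had 628 ± 16.1 CPM in homozygous and 674 ± 29.8 CPM in heterozygous libraries. Plaa, an activator of the enzymes, had 45.1 ± 1.56 and 44.5 ± 1.93 CPM, and Anxa1, an annexin known to restrain them, 1.69 ± 0.336 and 1.33 ± 0.200 CPM (SD, n = 4 each), all with overlapping groups. Leaving out the library labelled homozygous replicate 1 gave homozygous means of 621 ± 5.82 CPM for Pafah1b1, 45.8 ± 0.802 CPM for Plaa and 1.81 ± 0.270 CPM for Anxa1 (SD, n = 3). Pafah1b1 then lay below and Anxa1 above every heterozygous library, a separation found in 18.5% of all genes with 7 libraries.

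Among 17 tested enzymes that turn arachidonic acid into eicosanoids, Ptgds rose with 7 libraries and no other passed. Ptgds encodes the lipocalin-type prostaglandin D2 synthase, a product of meninges, choroid plexus and oligodendrocytes. It had 375, 865, 920 and 810 CPM in homozygous replicates 1 to 4, against 349, 356, 523 and 455 CPM in heterozygous replicates 1 to 4. The library labelled homozygous replicate 1 was among the heterozygous values and the other 3 homozygous libraries were above all of them.

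Its log2 fold change was 0.82 (SE 0.28, edgeR adjusted p = 0.214) with 8 libraries. Without the library labelled homozygous replicate 1, Ptgds averaged 865 ± 55.0 CPM in homozygous (SD, n = 3) and 421 ± 83.5 CPM in heterozygous libraries (SD, n = 4), a log2 fold change of 1.04 (SE 0.14, edgeR adjusted p = 0.0176). The adjusted p lay between 1.22e-10 and 0.0757 over the alternatives with 7 libraries, and the call was lost on leaving out homozygous replicate 2 or 3 or heterozygous replicate 4. Ptgds was not among the 185 genes of the authors' deposited table, which reaches a false discovery rate of 0.0936. The 8 meningeal fibroblast markers summed to 91.9, 93.6, 148 and 144 CPM in homozygous replicates 1 to 4, against 100, 108, 193 and 217 CPM in heterozygous replicates 1 to 4. The part of meningeal or oligodendrocyte content in the Ptgds values was not tested.

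In the leukotriene branch, Ltc4s, the leukotriene C4 synthase, had 1.55 ± 0.282 CPM in homozygous and 1.08 ± 0.101 CPM in heterozygous libraries (SD, n = 4 each), without overlap. Alox5ap, the protein that presents arachidonic acid to 5-lipoxygenase, had 3.50 ± 0.592 and 2.77 ± 0.205 CPM in the same order of groups, also without overlap. Ptges, the inducible prostaglandin E synthase, lay the other way at 3.50 ± 0.403 CPM in homozygous and 4.88 ± 0.190 CPM in heterozygous libraries (SD, n = 4 each). With 3 homozygous libraries, leaving out the one labelled replicate 1, the means were 1.58 ± 0.338 CPM for Ltc4s, 3.65 ± 0.616 CPM for Alox5ap and 3.31 ± 0.164 CPM for Ptges (SD, n = 3). None of these 3 passed edgeR's test in either fit, and over all genes 9.28% had groups that did not overlap with 8 libraries. For Ptges the adjusted p lay between 0.0354 and 0.306 over the alternatives with 8 libraries and between 0.0153 and 0.198 with 7. DESeq2 called it in both, and limma on log2(TPM + 1) with 7. Of all genes, DESeq2 called 679 of 16511 with 8 libraries and 1083 of 16560 with 7. The log2(TPM + 1) fit with 7 called 2095 of 16560 as lower and 95 as higher.

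Alox5, 5-lipoxygenase itself, was looked up after its values were seen. It had 1.23, 1.49, 0.806 and 1.24 CPM in homozygous replicates 1 to 4, against 0.534, 0.233, 0.904 and 0.628 CPM in heterozygous replicates 1 to 4. The groups overlapped, as homozygous replicate 3 was below heterozygous replicate 3. Its fitted log2 fold change was 1.03 (SE 0.35, edgeR adjusted p = 0.195) with 8 libraries and 1.02 (SE 0.39, edgeR adjusted p = 0.196) with 7, with an adjusted p of 0.111 to 0.414 over the alternatives of both sets. The more abundant Ptges3 and Ptges2, other prostaglandin E synthases, overlapped between the groups and had 101 ± 7.01 and 32.0 ± 0.837 CPM in homozygous and 104 ± 10.2 and 34.8 ± 2.07 CPM in heterozygous libraries (SD, n = 4 each); without the library labelled homozygous replicate 1 the homozygous means were 100.2 ± 8.54 and 32.3 ± 0.846 CPM (SD, n = 3). Of 13 eicosanoid receptors 8 were tested and 0 passed in either fit. The most abundant were the prostaglandin E receptors Ptger1, at 8.80 ± 0.817 CPM in homozygous and 9.19 ± 1.06 CPM in heterozygous libraries (SD, n = 4 each), or 8.42 ± 0.344 CPM in homozygous libraries without the library labelled homozygous replicate 1 (SD, n = 3), Ptger3 and Ptger4.

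Of 13 genes that activate fatty acids (acyl-CoA synthetases) or put them back on lysophospholipids (acyltransferases), 0 passed in either fit. In each fit 11 of 13 had a negative log2 fold change, beside 8193 of 16511 genes with 8 libraries and 8201 of 16560 with 7, and 3 of 13 had homozygous values below all heterozygous ones, beside 4.67% and 8.77% of all genes. Whether the list differs from other genes was not tested. Acsl6, an acyl-CoA synthetase of neurons and other brain cells, had 229, 217, 201 and 199.5 CPM in homozygous replicates 1 to 4, against 245, 240, 272 and 269 CPM in heterozygous replicates 1 to 4, without overlap. Its log2 fold change was -0.28 (SE 0.07, edgeR adjusted p = 0.131) with 8 libraries and -0.32 (SE 0.07, edgeR adjusted p = 0.0649) with 7. Over the alternatives its adjusted p lay between 0.00841 and 0.307 with 8 libraries and between 0.000937 and 0.232 with 7; DESeq2 called it in both, and limma on log2(TPM + 1) and the fit without a filter with 7. Acsl4, which activates arachidonic acid, had 84.3 ± 2.16 CPM in homozygous and 95.9 ± 9.84 CPM in heterozygous libraries, and Mboat2, a lysophospholipid acyltransferase, 22.1 ± 1.17 and 25.4 ± 1.80 CPM (SD, n = 4 each), both without overlap. On the log2(TPM + 1) scale with 7 libraries limma called both (adjusted p = 0.0345 for Acsl4 and 0.0361 for Mboat2). That fit called 2095 of 16560 genes as lower and 95 as higher, and its median log2 fold change over all genes was -0.17. Of the 66 pathway genes tested it called 14 as lower and 1 as higher. Its calls of Acsl6, Acsl4 and Mboat2 therefore carry that shift of the whole scale. Leaving out the library labelled homozygous replicate 1 gave homozygous means of 84.0 ± 2.57 CPM for Acsl4 and 21.8 ± 1.16 CPM for Mboat2 (SD, n = 3). Acsl3 and Mboat7, the other abundant genes of this list, had 208 ± 20.6 and 151 ± 7.87 CPM in homozygous and 209 ± 15.6 and 155 ± 10.9 CPM in heterozygous libraries (SD, n = 4 each); without the library labelled homozygous replicate 1 the homozygous means were 204 ± 23.4 and 150.2 ± 9.55 CPM (SD, n = 3).

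Of 16 tested genes of lysophospholipid breakdown and signalling 0 passed in either fit. Enpp2, the autotaxin that makes lysophosphatidic acid from lysophosphatidylcholine, spread widely, with 555, 444, 776 and 526 CPM in homozygous replicates 1 to 4, against 477, 347, 551 and 1037 CPM in heterozygous replicates 1 to 4. Plpp3, a lipid phosphate phosphatase, had 157 ± 23.7 CPM in homozygous and 183 ± 30.5 CPM in heterozygous libraries, and Lypla2, a lysophospholipase, 43.7 ± 2.88 and 40.7 ± 2.51 CPM (SD, n = 4 each). These groups overlapped. With 3 homozygous libraries, leaving out the one labelled replicate 1, the means were 149.9 ± 23.0 CPM for Plpp3 and 44.0 ± 3.47 CPM for Lypla2 (SD, n = 3).

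**Figure D5:**
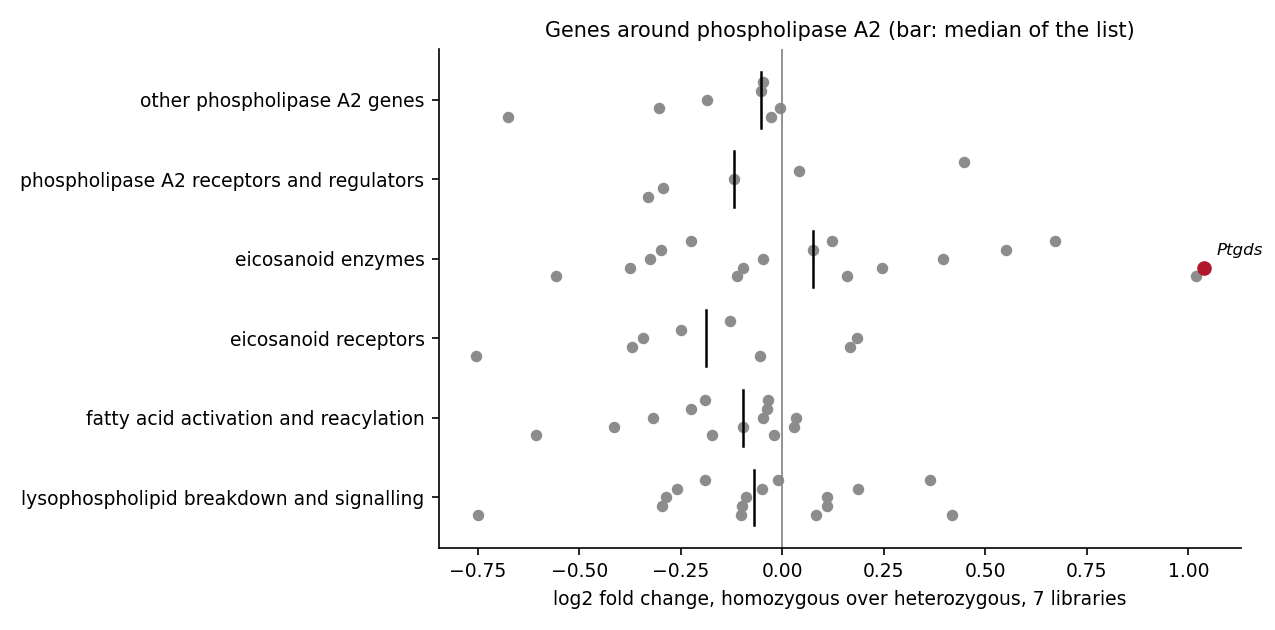
Log2 fold change (x axis, homozygous over heterozygous, 7 libraries) of the 66 tested genes of 6 lists around the phospholipases A2 (rows); each point is a gene and each black bar the median of its list. Ptgds, in red at 1.04, is the gene that passed edgeR's test, and the medians of 5 lists lie below 0 while that of the eicosanoid enzymes is 0.07.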

How the data were processed

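The submitters' processing notes name cutadapt, STAR, RSEM, Picard and mm10, with no version and no annotation. Each library's table, per the file headers, holds the authors' RSEM expected counts, the TPM and the FPKM of every gene, and its effective length. A further table the authors deposited gives log2 fold changes, p-values and false discovery rates of their own comparison. The deposited sequencing report holds other values per library, such as percent mapped (92.36% in homozygous replicate 3, 98.33% or more elsewhere) and RNA integrity scores.

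Expected counts were rounded. The homozygous over heterozygous contrast was fitted in edgeR 4.0.16 under R 4.3.3 (TMM, filterByExpr by group, robust quasi-likelihood fit, Benjamini-Hochberg over all genes tested, threshold 0.05), once with 8 libraries and once with 7; limma is version 3.58.1, DESeq2 1.42.0, Python 3.11.15, pandas 2.3.3 and matplotlib 3.10.9. Each SE belongs to a log2 fold change. The pseudocount of log2(TPM + 1) was 1. Alternatives are given in the closing section. The procedure was checked on simulated counts in which no library went against its label. At 2-fold it recovered 83.6% of changed genes with 8 libraries and 80.6% with 7, and at 1.5-fold 53.7% with each. False calls made up 3.66% of calls with 8 libraries and 6.71% with 7. Of 47643 gene identifiers, 47224 matched GENCODE M21, used for positions.

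The members and gene lists were chosen with earlier results of these data known. Named genes were the members, Arf1, pathway genes that passed, the 3 with the highest TPM per list and up to 4 per list without overlap, and the 5 most like Pla2g3. Replicates are numbered by deposition. Each p-value sets the difference between the groups against the spread between libraries within them. Nothing in the labels gives litter, batch or sex, so no fit could adjust for these. No sequences are shown. A marker gene of the Schwann cell list is not reported here and was left out of its sum.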

Additional observations from a re-analysis of the deposited data

Results flagged for a closer look

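Of 66 groups of 4 libraries examined for 33 named genes, 5 had a highest or lowest library set far from the other 3 by Dixon's criterion. Chance gives about 1 group in 20. Arf1, whose homozygous replicate 1 stood far from its group as given above, is not counted in these 5. Pla2g5 was lowest in homozygous replicate 2, at 1.86 CPM. Pla2g12a was lowest in heterozygous replicate 4, at 10.7 CPM, which widens the distance between its groups. Pla2g16 was highest in heterozygous replicate 3, at 54.3 CPM. Ltc4s was highest in homozygous replicate 3, at 1.97 CPM, the library with 92.36% of reads mapped and 2.44% ribosomal bases. Acsl4 was lowest in homozygous replicate 2, at 81.1 CPM.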

How the results depend on the processing

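With 8 libraries 0 genes passed edgeR's test; DESeq2 called 679, no filter on low counts 63 and limma on log2(TPM + 1) 1, and leaving out a replicate gave 0 to 202. Of the pathway genes with 8 libraries DESeq2 called 2 against 0, and leaving out a replicate gave 0 to 1. With 7 libraries 202 genes passed, 91 higher and 111 lower; DESeq2 called 1083, no filter 444 and log2(TPM + 1) 2190, of which 95 were higher and 2095 lower, and scaling by library totals alone gave 60 higher and 150 lower. Leaving out a replicate from the 7 libraries gave 6 to 402. Of the pathway genes 1 passed with 7 libraries; DESeq2 called 4, log2(TPM + 1) 15 and no filter 2, and leaving out a replicate gave 0 to 4. The cause of these differences was not tested.

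Of 248 member values under the alternatives, 238 moved by less than the spread between replicates and 10 moved by more, 9 of these on the log2(TPM + 1) scale. The log2 fold change of Pla2g3 lay between 0.84 and 1.28 under the other settings with 8 libraries and between 0.93 and 1.42 with 7; leaving out a replicate gave 1.09 to 1.42 and 1.23 to 1.54. That of Pla2g7 lay between -0.62 and -0.44 with 8 libraries, and leaving out a replicate gave -0.54 to -0.34. No paired analysis was possible because replicates are numbered only by deposition and the labels, whose titles carry an animal number each, state no litter, batch or pairing. The neighbours Smtn, Inpp5j, Selm and Patz1, and Alox5, were added after seeing the data. Genes near 1 CPM rest on few counts, and the precision is limited by 4 mice per group, of which 1 goes against its label.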
